A study of Ceratopteris richardii with 9 samples.

Results

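The transcripts described here were the most shoot-specific among the abundant transcripts of the young Ceratopteris sporophyte. They were chosen from the counts themselves, as CPM, the reads assigned to a transcript per 1000000 counts of its library. A transcript was kept when its mean over the 3 shoot libraries was at least 10 CPM and when its lowest shoot value was at least 8 times its highest value in the 6 root libraries, with 0.5 CPM added to both. This ratio is called the score. Of 28952 transcripts, 12487 reached 10 CPM in the shoot and 176 passed both limits, which is 1.41% of those abundant in the shoot. The limit of 200 set for the list was not reached, so all that passed were kept. In every one of them all 3 SH libraries lay above all 6 root libraries, as the rule requires, and this held for 14.2% of all transcripts.

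Ceratopteris richardii is a homosporous fern whose sporophyte bears leaves, a short stem and stem-borne roots. Plants of the Hn-n strain were grown on C-Fern medium with sucrose, and tissue was taken at 45 days after fertilization. The groups were the shoot (SH), which held leaves and stem freed of root tissue, the differentiated root (DR), which was root without its tip, and the root tip (RT), each with 3 libraries. All plants shared strain, age and culture. Each library pooled organs from several plants, so it averages over plants and over the cell types of the segment, and fewer cells of a type cannot be told apart from less RNA per cell.

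Fern leaves and stems carry out tasks that roots largely lack. Leaf cells build chloroplasts that capture light with chlorophyll-binding proteins and fix carbon with Rubisco, the leaf surface forms stomata with guard cells, and an apical cell at the stem tip produces new leaves. Genes that serve such tasks are commonly transcribed far more in shoots than in roots of land plants. The table lists transcripts by assembly number and does not pair them with gene names, so which of these tasks the 176 transcripts serve was not tested, and no gene name is given to any of them. Since a count rises with transcript length and lengths were not used here, levels of different transcripts are compared only as reads.

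Libraries held between 20065804 and 27376687 counts. The table gave no leaf or stem gene by name, so the shoot label could be checked only from the other side, with transcripts of the WOX family of homeobox genes that the study's text names. CriWUL (transcript86941), of the WUS clade, stood at 0.0395, 0.183 and 0.110 CPM in SH replicates 1 to 3 against 4.68, 2.71 and 2.97 CPM in the RT replicates. CriWOXB (transcript86378) stood at 0.711, 1.02 and 0.953 CPM in the SH against 50.5, 26.8 and 25.7 CPM in the DR. Both were lower in every SH library than in any library of that root segment. CriWOXA (transcript45206) was less distinct, with 1.23, 2.31 and 1.73 CPM in the SH and 1.84, 4.38 and 7.05 CPM in the RT. In the DR it stood at 0.162, 0.611 and 0.573 CPM, so every SH library lay above every DR library. The paper cites earlier reports of CriWOXB in meristems of the leaf and shoot, so its low SH level is only a partial check of the label.

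The 176 transcripts took 3.85%, 3.40% and 3.18% of all counts in SH replicates 1, 2 and 3, a mean of 3.47% ± 0.34 (SD, n = 3). In the DR replicates they took 0.0511%, 0.0566% and 0.0565%. In the RT replicates they took 0.0443%, 0.0266% and 0.0245%. The gap between the lowest SH share and the highest root share was 56.1-fold, which follows from how the transcripts were chosen and is not a test. All 3 RT shares lay below all 3 DR shares, with RT replicate 1 nearest to the DR.

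**Figure D1:**
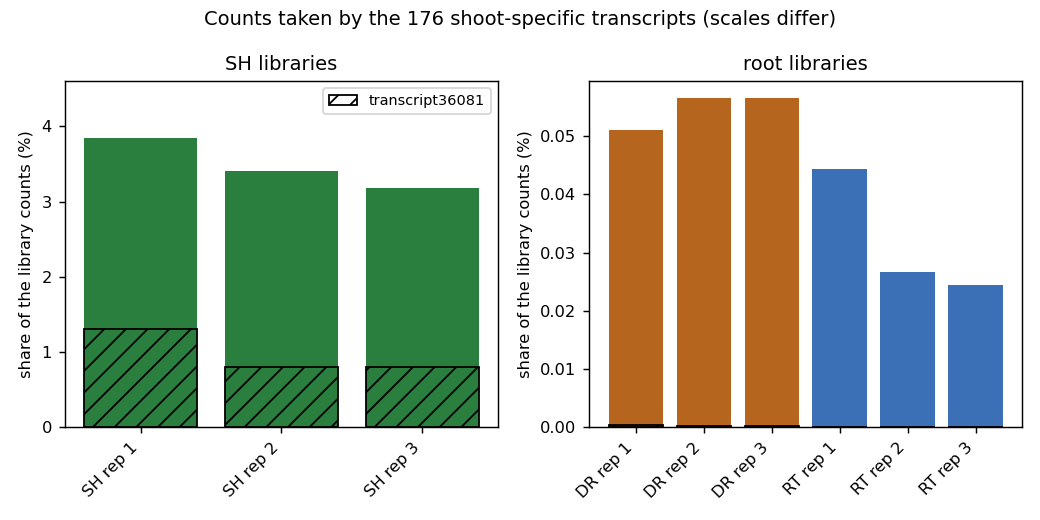
Share of each library's counts (%, vertical axis, different scale in each panel) taken by the 176 shoot-specific transcripts in the 3 SH libraries (left) and in the 3 DR and 3 RT libraries (right). Bars are single libraries, and the hatched part is transcript36081. SH shares run from 3.18% to 3.85%, and root shares from 0.0245% to 0.0566%.

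The counts were concentrated in few members. Transcript36081 alone held 27.9% of the summed mean SH CPM of the 176, the 10 most read members held 54.9% and the 50 most read held 84.6%. Mean SH levels ran from 10.08 to 9707 CPM with a median of 51.7 CPM. By level, 53 members lay between 10 and 30 CPM, 67 between 30 and 100 CPM, 52 between 100 and 1000 CPM and 4 at 1000 CPM or more.

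Transcript36081 stood apart from the rest. Its SH values were 13078, 8066 and 7977 CPM, so it took about 1% of SH counts (mean 0.971%) and ranked as number 3 of all transcripts in the SH. In the DR it stood at 3.317, 1.79 and 2.99 CPM and in the RT at 1.15, 0.250 and 0.150 CPM. Its score was 2090, the highest of the list, and its mean SH level was 2927 times its highest root value. Without it the members took 2.54%, 2.59% and 2.38% of the SH counts, so the larger share of SH replicate 1 came from this transcript.

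Most of the transcripts most read in the shoot were also read in roots. Of the 10 transcripts with most reads in the SH, 9 were not members, and their scores lay between 1.03 and 4.00. Those 9 had mean SH levels from 3946 to 44823 CPM and reached 1139 to 10680 CPM in their highest root library. Members were 3 of the 50, 4 of the 100 and 28 of the 500 transcripts most read in the SH, which are larger shares than the 1.41% among all transcripts abundant there.

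The next most read members fell into different kinds by what remained of them in roots. Transcript23370 had 2348, 1901 and 1713 CPM in the SH, 0.121, 0.570 and 0.527 CPM in the DR and 1.40, 0.668 and 0.225 CPM in the RT. Transcript152118 had 1151, 896 and 996 CPM in the SH, 0.728, 0.570 and 1.45 CPM in the DR and 0.748, 1.09 and 0.714 CPM in the RT. Both stayed below 1.5 CPM in every root library, with scores of 904 and 460. Transcript20627, with 2073, 1527 and 1533 CPM in the SH, kept 19.0, 14.7 and 12.2 CPM in the DR and 30.7, 29.7 and 31.3 CPM in the RT, so it was read in all 6 root libraries.

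Members with far fewer reads in the tip than in the differentiated root were also among the most read. Transcript72816 had 1476, 616 and 706 CPM in the SH, 11.1, 7.62 and 10.4 CPM in the DR and 0.698, 0.376 and 0.338 CPM in the RT. Transcript54548 had 686, 1010 and 811 CPM in the SH, 28.7, 18.0 and 30.7 CPM in the DR and 3.04, 5.68 and 1.77 CPM in the RT. Transcript134392 had 749, 780 and 743 CPM in the SH, 33.2, 64.8 and 80.6 CPM in the DR and 1.84, 2.13 and 1.05 CPM in the RT. In each of these 3 all DR libraries lay above all RT libraries, and the 80.6 CPM of transcript134392 was the highest root value of any member.

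In 3 further members of the 10 most read, the root segments overlapped. Transcript133942 had 715, 893 and 717 CPM in the SH, 4.33, 8.43 and 5.97 CPM in the DR and 11.3, 2.80 and 1.95 CPM in the RT. Transcript22535 had 673, 708 and 667 CPM in the SH, 20.9, 47.4 and 42.5 CPM in the DR and 56.3, 4.22 and 4.74 CPM in the RT. For both, RT replicate 1 lay above every DR library, and the other RT libraries lay below them. Transcript22986 had 823, 628 and 597 CPM in the SH, 63.9, 19.4 and 27.5 CPM in the DR and 16.2, 24.7 and 14.6 CPM in the RT, with DR replicate 1 standing highest.

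**Figure D2:**
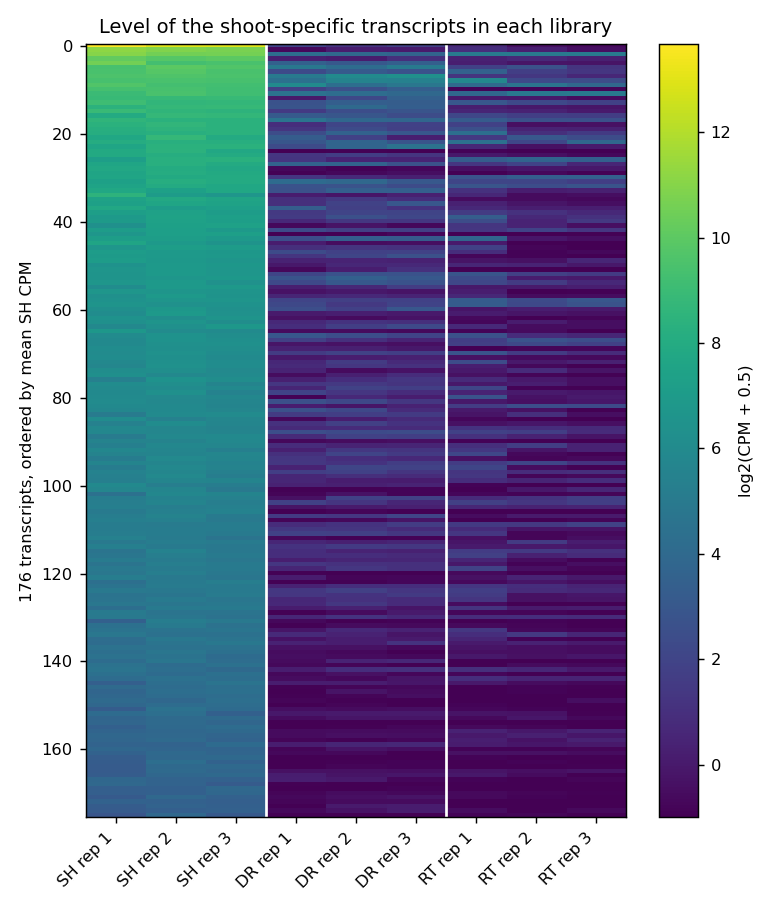
Level of each of the 176 transcripts (rows, ordered by mean SH CPM) in the 9 libraries (columns), coloured by log2(CPM + 0.5). The SH columns hold mean levels from 10.08 to 9707 CPM, and the root columns are dark except for scattered rows, the highest of which reaches 80.6 CPM in DR replicate 3.

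Scores ran from 8.04 to 2090 with a median of 15.5. A score of at least 16 was reached by 86 members, at least 32 by 40, at least 64 by 16 and at least 100 by 7. Next to transcript36081, transcript23370 and transcript152118, the largest scores were 399 for transcript54323 and 268 for transcript110409. Transcript54323 had 6075, 9327 and 5963 counts in the SH (240, 341 and 219 CPM), 0, 1 and 0 counts in the DR and 1, 0 and 0 counts in the RT. Transcript110409 had 192, 266 and 238 CPM in the SH against 1, 3 and 5 counts in the DR and 0, 3 and 1 counts in the RT. The mean shoot levels of both lay above the upper quartile of the list (136 CPM). Their root reads were few enough that the difference between root segments could not be judged.

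The edge of the list was gradual. Just inside lay transcript71271, transcript45318 and transcript65514 with scores of 8.08, 8.08 and 8.04, and just outside lay transcript122776, transcript35641 and transcript54916 with scores of 7.96, 7.96 and 7.96. Transcript65514 had 24.5, 19.2 and 15.9 CPM in the SH and up to 1.54 CPM in roots. Transcript122776, outside, had 197, 188 and 204 CPM in the SH and up to 23.1 CPM in roots. A single library set the edge for both, since the score rests on 1 SH and 1 root value.

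Full absence from roots was rare. Only transcript64156 had no counts in any of the 6 root libraries, at 13.7, 16.5 and 14.0 CPM in the SH. Taking 3 counts over the 6 root libraries as the limit that a count of 0 allows (0.0210 CPM), its mean SH level was at least 701-fold higher. There were 9 members without counts in all 3 RT libraries and 3 without counts in all 3 DR libraries. Transcript117879 had 98.7, 118 and 103 CPM in the SH and 3, 15 and 35 counts in the DR, and none in the RT, so its SH level was at least 2510-fold and its DR level at least 17.8-fold above the RT limit of 0.0425 CPM. Such limits cover counting error only.

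Most members left a measurable trace in roots. In their highest root library 62 members stayed below 1 CPM and 69 lay between 1 and 5 CPM, while 45 reached 5 CPM and 22 of these reached 10 CPM. The median level, as a percent of the mean SH level of the same transcript, was 1.34%, 2.08% and 1.96% in DR replicates 1 to 3 and 1.12%, 0.580% and 0.417% in RT replicates 1 to 3. Within a library the members were far from one common percent. In DR replicate 1 the middle of the list, from the lower to the upper quartile, lay between 0.467% and 3.46%, with a highest value of 10.3%, while transcript36081 lay at 0.0342%. In RT replicate 3 the quartiles were 0.0676% and 1.57%, and transcript36081 lay at 0.00155%. The most read member was thus far below the median percent in every root library.

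**Figure D3:**
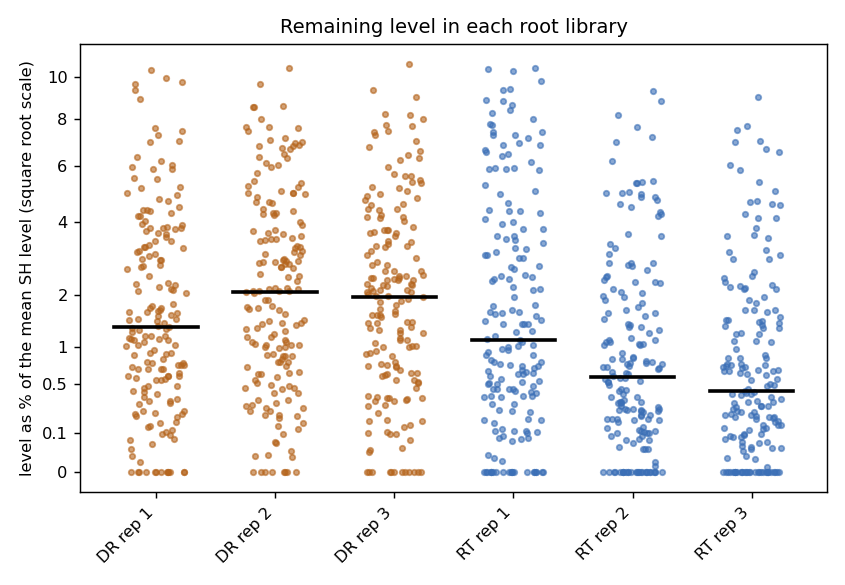
Level of the 176 transcripts in each root library as a percent of their own mean SH level (vertical axis, square root scale), with 1 point per transcript and a black bar at the median. Medians are 1.34%, 2.08% and 1.96% in the DR and 1.12%, 0.580% and 0.417% in the RT, and the highest single values are near the limit that the choice of members sets.

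Whether these transcripts differed between the 2 root segments was the comparison that the choice did not fix, because the rule treated the 6 root libraries alike. It did bound the size of a difference, since no root value could be high. More members were higher in the DR than were higher in the RT. In edgeR's quasi-likelihood test, adjusted over all 28952 transcripts at 0.05, 65 of the 176 members (36.9%) were higher in the DR, where 27.9% of all transcripts were. Higher in the RT were 21 members (11.9%), against 29.9% of all transcripts. The remaining 90 were not past the threshold. The median log2 difference of DR minus RT was 0.90 over the members and -0.07 over all transcripts. The difference was positive in 121 of the 176 (68.8%), against 47.8% of all transcripts. Without RT replicate 1 alone the member median was 1.57, and with other single libraries left out it was as low as 0.64. With all libraries it was 0.89 when the members with no counts in a root segment were set to the bound that 3 counts allow and 5 of them, at or under that limit in both segments, were left out.

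Members higher in the DR had a median SH level of 69.4 CPM, and median levels of 2.21 CPM in the DR and 0.423 CPM in the RT. Their log2 differences ran from 0.76 to 7.08 with a median of 2.62, the highest being that of transcript117879, which has no RT counts, so that this fitted value depends on the prior count. As a group they took 1.97% of SH counts, 0.0301% of DR counts and 0.00518% of RT counts. The members called most firmly are given next. Their order of shoot, then differentiated root, then tip follows from the rule and from the direction of the call.

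In transcript134392 the log2 difference was 5.17 (standard error 0.38, adjusted p = 5.451e-06 in edgeR's quasi-likelihood test). Transcript89141 had 349, 444 and 455 CPM in the SH, 6.59, 15.5 and 9.93 CPM in the DR and 0.648, 0.459 and 0.376 CPM in the RT, a log2 difference of 4.45 (standard error 0.35, adjusted p = 7.107e-06). Its lowest DR library was well above its highest RT library. Transcript82798 had 177, 228 and 186 CPM in the SH, 1.497, 2.20 and 1.41 CPM in the DR and 0.199, 0.167 and 0.116 CPM in the RT, a log2 difference of 3.40 (standard error 0.28, adjusted p = 1.036e-05). Transcript83146 had 242, 280 and 251 CPM in the SH, 1.98, 2.69 and 1.93 CPM in the DR and 0.449, 0.250 and 0.113 CPM in the RT, a log2 difference of 3.08 (standard error 0.30, adjusted p = 2.573e-05). The groups did not overlap in any of these.

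Transcript117878 had the widest gap of the 5 members called with the smallest p. Its SH values were 652, 690 and 577 CPM, its DR values 2.87, 5.497 and 10.1 CPM, and its RT counts were 1, 1 and 2. The log2 difference was 6.63 (standard error 0.63, adjusted p = 2.064e-05 in edgeR's quasi-likelihood test), a fitted value that rests on 4 RT reads. Of the most read members described above, transcript72816 (4.40, adjusted p = 3.895e-05), transcript54548 (2.89, adjusted p = 0.0001775) and transcript36081 (2.51, adjusted p = 0.004924) were also higher in the DR.

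The members higher in the RT were fewer and lower, with median levels of 46.1 CPM in the SH, 0.331 CPM in the DR and 1.06 CPM in the RT. Their log2 differences of DR minus RT were between 0.71 and 3.47 in size with a median of 1.96. They took 0.326% of SH counts, 0.00307% of DR counts and 0.00863% of RT counts.

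Transcript44294 was the most firmly called of them. It had 61.6, 81.4 and 80.6 CPM in the SH, 0.404, 0.326 and 0.264 CPM in the DR and 2.94, 4.01 and 3.08 CPM in the RT, a log2 difference of -3.31 (standard error 0.25, adjusted p = 5.741e-06 in edgeR's quasi-likelihood test). Every RT library lay above every DR library. Transcript80651 had 150, 306 and 314 CPM in the SH, 1.89, 0.855 and 0.878 CPM in the DR and 9.72, 12.8 and 10.6 CPM in the RT, a log2 difference of -3.18 (standard error 0.37, adjusted p = 7.004e-05). Transcript103723 had 198, 242 and 255 CPM in the SH, 2.02, 1.18 and 0.747 CPM in the DR and 6.21, 10.1 and 10.6 CPM in the RT, a log2 difference of -2.78 (standard error 0.36, adjusted p = 0.0001319). In both, the RT held several percent of the shoot level (4.30% and 3.87%) and the DR under 1% (0.471% and 0.568%).

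Transcript85616 (-2.68, adjusted p = 0.0001845 in edgeR's quasi-likelihood test) and transcript46150 (-3.06, adjusted p = 0.0004159) showed the same order, the latter at only 0.698, 0.334 and 0.827 CPM in the RT. Among the 10 most read members, transcript20627 was the one higher in the RT (-0.996, standard error 0.23, adjusted p = 0.004763). Without overlap, all 3 DR libraries lay above all 3 RT libraries in 58 members (33.0%, against 28.7% of all transcripts), and all 3 RT libraries lay above in 17 (9.66%, against 33.0%).

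**Figure D4:**
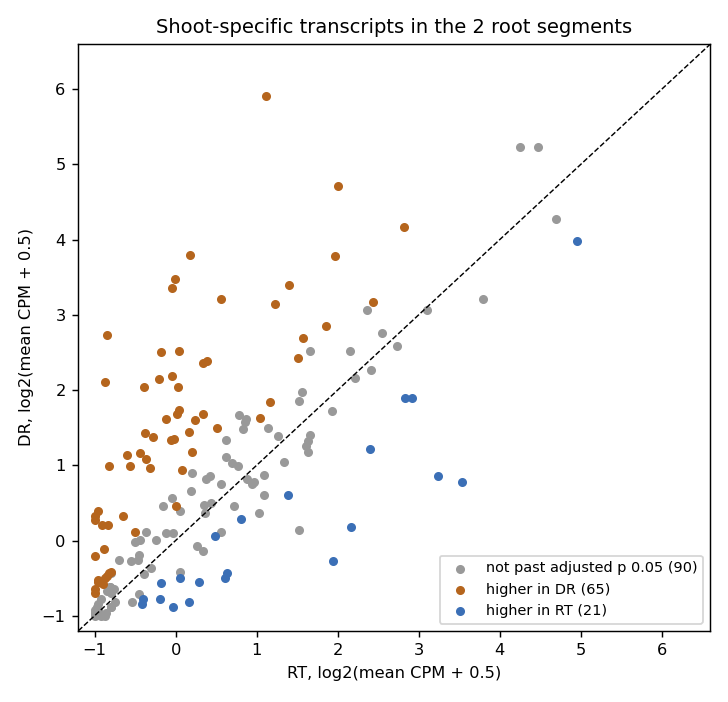
Mean level of each of the 176 transcripts in the RT (horizontal) and the DR (vertical), both as log2(CPM + 0.5), with the line of equal levels dashed. Brown points are the 65 higher in the DR, blue points the 21 higher in the RT and grey points the 90 not past an adjusted p of 0.05 in edgeR's quasi-likelihood test.

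RT replicate 1 differed from the other tip libraries for many members. Of the 79 members with at least 1 CPM in RT replicate 1, 38 (48.1%) were at least 2 times higher there than in both other RT libraries, as were 12.1% of the 23890 transcripts of the whole table at that level. The same was found in 3 of 48 members for RT replicate 2 and in 0 of 43 for RT replicate 3. Within the DR it was found in 4 of 82, 1 of 92 and 5 of 94 members for replicates 1 to 3. Shares of all transcripts were not counted for these libraries. The 38 included transcript22535 and transcript133942, and also transcript126360, at 9.67, 1.13 and 1.65 CPM in the RT. For 34 of the 38 the mean DR level lay above both RT replicates 2 and 3, a count that was not made over all transcripts. Between DR and RT 8 of the 38 were called, against 48.9% of all members and 57.8% of all transcripts.

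The transcripts that passed the same rule for the DR took 0.0979% of counts in RT replicate 1 and 0.0619% and 0.0807% in the other RT libraries, and those that passed it for the RT took 0.484% there and 0.679% and 0.733% in the others. Among the RT libraries, replicate 1 thus had the highest share of the SH and DR lists and the lowest share of the RT list. The lists were chosen with the values of this library, so the shares are a description, and their cause was not tested. Without RT replicate 1 the members higher in the DR numbered 89 and those higher in the RT 18, where 29.6% of all transcripts were higher in each. When the members were also chosen without it, 194 transcripts passed, of which 101 (52.1%) were higher in the DR and 18 (9.28%) in the RT, against the same 29.6% each of all transcripts. Transcript22535 was then called higher in the DR (log2 difference 2.96, adjusted p = 0.000167), while with all libraries its difference was 0.91 (adjusted p = 0.3452, edgeR's quasi-likelihood test).

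The spread between SH libraries was wider for members than for other abundant transcripts. The coefficient of variation, which is the SD over the 3 SH libraries divided by their mean, had a median of 15.7% over the members and 9.98% over the 12311 other transcripts with at least 10 CPM in the SH. It was 16.4% against 10.3% between 10 and 30 CPM, 16.2% against 9.40% between 30 and 100 CPM and 15.1% against 9.80% between 100 and 1000 CPM. SH replicate 1 gave much of this spread, and without it the medians were 9.53% and 6.40%. The lowest SH value entered the choice of members, so these spreads are a description. They used CPM scaled by column sums alone. The TMM factor was 0.7731 in SH replicate 1, below the 0.8495 and 0.8533 of SH replicates 2 and 3.

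**Figure D5:**
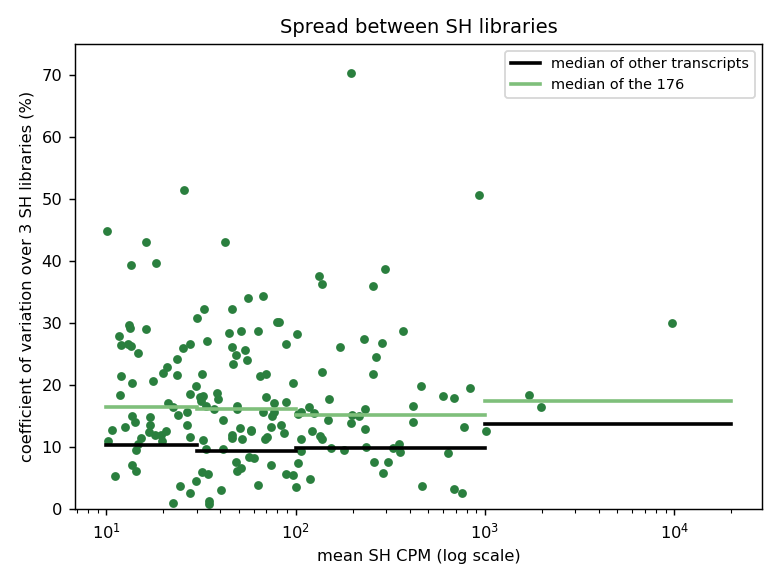
Coefficient of variation over the 3 SH libraries (%, vertical) against mean SH CPM (horizontal, log scale) for the 176 transcripts, with 1 point each. Green lines are medians of the members and black lines medians of the other transcripts in the same range of level, for example 16.2% and 9.40% between 30 and 100 CPM.

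SH replicate 2 was the highest SH library for 95 members (54.0%), against 38.7% of the other transcripts, and SH replicate 1 was the lowest for 96 members (54.5%), against 48.6%. In 6 members (3.41%) SH replicate 1 was at least 1.5 times both other SH libraries, against 0.642% of the other transcripts. In 20 members (11.4%) it was lower than both by at least that factor, against 3.31%. The largest spread was that of transcript117067, at 356, 130 and 104 CPM (70.4%), followed by transcript25234 at 10.8, 36.1 and 30.1 CPM (51.4%) and transcript72816 (50.7%). The first and last of these were highest in SH replicate 1, and transcript25234 was lowest there.

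Other members were nearly constant over the shoot libraries. Transcript40998 had 35.2, 34.8 and 34.7 CPM (0.787%), transcript54130 had 22.3, 22.8 and 22.4 CPM (0.990%) and transcript77698 had 35.4, 34.6 and 35.2 CPM (1.25%). In roots these differed. Transcript40998 was higher in the DR, with 2.10, 1.87 and 1.27 CPM against 1.25, 0.376 and 0.338 CPM in the RT (log2 difference 1.51, adjusted p = 0.006799 in edgeR's quasi-likelihood test). Transcript54130 (-0.12, adjusted p = 0.856) and transcript77698 (-0.44, adjusted p = 0.2028) were not past the threshold.

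Assembly numbers were not used in the choice, and 5 pairs of members carried neighbouring numbers. Transcript117878 and transcript117879 had mean SH levels of 640 and 107 CPM, and in both all DR libraries lay above all RT libraries. Transcript126359 had 57.1, 82.3 and 70.2 CPM and transcript126360 had 121, 173 and 158 CPM in the SH, both lowest in SH replicate 1. In the RT transcript126359 had 4.83, 0.501 and 0.752 CPM, so both of this pair were highest in RT replicate 1, and they shared the order of the 3 libraries in each segment. Whether paired members share sequence was not tested.

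Transcript49121 had 41.5, 60.0 and 37.2 CPM in the SH and transcript49122 had 34.3, 34.5 and 28.1 CPM. In the DR both stood near 1 CPM (means of 1.26 and 0.878 CPM), and in the RT both were highest in replicate 1, at 2.14 and 0.947 CPM. Transcript64155 had 27.4, 37.7 and 29.3 CPM in the SH with 1 count in the DR and 3 in the RT, beside transcript64156 with none in either. Of the 168 other transcripts whose number lay next to that of a member, all 3 SH libraries were above all 6 root libraries in 42 (25.0%), against 13.7% of all transcripts outside the list. Their median score was 0.437, close to the 0.42 of all transcripts outside the list. The median SH levels were 9.19 and 6.5 CPM.

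Reads of some members were divided between similar transcripts. kallisto gives values that are not whole numbers where a read fits several transcripts. All 3 SH values lay within 1e-06 of a whole number for 112 members (63.6%), against 71.8% of the other transcripts with at least 10 CPM in the SH, and within 0.1, a tolerance chosen after seeing the data, for 139 members (79.0%), against 86.2%. Of the 10 most read members, transcript36081, transcript72816, transcript134392 and transcript22986 had an SH value farther than 0.1 from a whole number, while transcript23370, transcript20627 and transcript54548 missed one by less than that. Transcript152118, transcript133942 and transcript22535 had whole values in the SH. How many reads were divided cannot be read from these distances.

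The same rule gave 160 transcripts for the DR, which took 2.39% ± 0.429 (SD, n = 3) of DR counts, and 52 for the RT, which took 0.632% ± 0.131 (SD, n = 3) of RT counts. The shoot list took 3.47% of its own libraries. No test is given, since the rule used these values.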

How the data were processed

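RNA of 3 sporophyte segments was sequenced with 3 biological replicates each. The authors trimmed reads with Trimmomatic 0.32, built 1 assembly with Trinity, reduced it with CD-HIT and then Compacta, obtained values per library from kallisto 0.44.0 and removed transcripts with low counts. The deposited table holds estimated counts (expected counts) per transcript, not divided by library size or length, although it is named for TPM. The kit does not mark strand, so antisense transcripts cannot be told apart.

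CPM used column sums. For tests, estimated counts were rounded and fitted with edgeR 4.0.16 (quasi-likelihood test, TMM scaling, prior count 0.125, 1 coefficient per segment over 9 libraries, R 4.3.3), with Benjamini-Hochberg adjustment over all transcripts and a threshold of 0.05. Standard errors are the log2 difference divided by the square root of F. TMM factors were 0.773 to 0.853 in the SH and 1.01 to 1.25 in roots. The fit was tested on simulated data with known changes between DR and RT, placed in transcripts with a mean of at least 1 CPM. It recovered 24% of log2 changes of 1, 70% of those of 2 and 98% of those of 4. Many members lay below 1 CPM in roots, where recovery was not measured. Alternatives were other scalings, filters and prior counts, DESeq2 1.42.0, limma 3.58.1 voom, a replicate block, other limits of the rule and each library left out. The choice of members without RT replicate 1 and the block within root libraries were added after seeing the data. The members and the lists were chosen with earlier results of these data known.

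Transcripts named were those with the 10 highest SH means, the 5 largest scores, those at the edge of the list, with no root counts, with the 3 largest and 3 smallest SH spreads, with the highest root value, with the 5 smallest p in each direction and in the 4 most read pairs of neighbouring numbers. Other pairs are given as counts. Of the table's transcripts, 0 matched the RefSeq gene table used here, so no names, coordinates or sequences are given.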

Additional observations from a re-analysis of the deposited data

How the results depend on the processing

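Of the 65 members higher in the DR and 21 higher in the RT, 0 were called in the opposite direction under any scaling, filter, tool or left-out library tried. DESeq2 size factors moved the median log2 difference of all transcripts from -0.07 to 0.0425. They gave 69 and 17 members, against 30.4% and 26.7% of all transcripts. With single libraries left out the numbers ranged from 55 to 89 in the DR and from 16 to 21 in the RT. The shares of all transcripts then ranged from 24.4% to 29.6% in the DR and from 25.4% to 29.6% in the RT. The number in the DR was 101 of 194 (52.1%) when the members were also chosen without RT replicate 1, against 29.6% of all transcripts. Members higher in the RT numbered 13 with limma voom (29.9% of all transcripts), 13 with only the 6 root libraries (26.4% of all) and 10 of 176 at a log2 difference of at least 2 (8.62% of all). Members higher in the DR numbered 58 of 176 with limma voom, against 28.5% of all transcripts. With only the 6 root libraries they numbered 50, against 26.2% of all, so the member share was near that of all transcripts. At a log2 difference of at least 2 they numbered 46, against 11.5% of all. Libraries of the same replicate number showed no shared signal. Correlations of same-numbered deviations lay between -0.367 and 0.109, and 1 of 9 libraries correlated best with its own number. Such correlations cannot tell whether same-numbered libraries came from the same plants. With a replicate block 60 members were higher in the DR and 19 in the RT (26.4% and 28.2% of all transcripts), and with a replicate block over root libraries alone 39 and 9 (21.2% and 20.8% of all). DESeq2 gave 4 members no adjusted p. The cause of these shifts was not tested. Some of the settings also had fewer libraries or a stricter limit.

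The number of transcripts passing the rule was 365 at a score of 4, 86 at a score of 16, 252 with TMM-scaled CPM and 176 to 203 with single libraries left out. The SH share was 2.50% without transcript36081, 2.64% for members with a score of at least 16 and 3.29% to 3.62% with single SH libraries left out. Of the 36 named transcripts tested, 9 had log2 differences on both sides of 0 over the settings, and 0 of these were called with all libraries. Transcript64155 (-3.10 to 1.81) and transcript54323 (-1.82 to 1.81) were past the threshold in 0 settings. Transcript126359, transcript126360, transcript133942, transcript22535, transcript49121 and transcript71271 were called only without RT replicate 1, all higher in the DR. Transcript126359 was called there against its sign with all libraries (1.22, adjusted p = 0.0308 in edgeR's quasi-likelihood test, against -0.24, adjusted p = 0.7702, with all libraries), and its values ranged from -0.72 to 1.22 when single libraries were dropped. Its adjusted p ran from 0.0308 to 0.984 over all settings. Transcript45318, just inside the list, lost its call (0.82, adjusted p = 0.02901) in 6 settings. In members such as transcript54323, with 1 count in each root segment, a difference between DR and RT was not detectable at this depth.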
